A study of Homo sapiens with 8 samples.

Results

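The 38 HOX genes analysed here lie in 4 clusters, HOXA on chromosome 7 (10 genes), HOXB on chromosome 17 (10 genes), HOXC on chromosome 12 (9 genes) and HOXD on chromosome 2 (9 genes), among 20163 protein-coding genes in all. They were taken by name and not by their binding, although earlier results of these data were known when they were chosen. A gene counted as having a peak where the summit of a peak lay in the gene or within 5 kb of it, and a cluster was the stretch between the outer ends of its first and last member. The study used ChIP-seq, which sequences the DNA fragments that an antibody precipitates, to compare where AML1-ETO and ETO2-GLIS2 sit on DNA in 1 cell type. AML1-ETO is a fusion of AML1 (RUNX1), which binds DNA through its Runt domain, with ETO, and ETO2-GLIS2 is a fusion of ETO2 with GLIS2, a zinc finger protein. Each had an N-terminal HA tag and was expressed from a retroviral doxycycline-inducible construct in U937, a human monoblastic cell line. Each protein was studied in 1 stable clone, #4 for AML1-ETO and #14 for ETO2-GLIS2, after 12 or 48 h with doxycycline at 5 µg/ml, followed by precipitation with anti-HA.

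Every condition had 1 ChIP library, so differences between proteins or times have no replicate check, and no p-value is given. Of the 8 libraries, 4 are ChIP libraries, each with 1 list of peaks, and the other 4 are inputs. The time was taken from the sample titles, since the treatment label of the 12 h samples names 48 h. ChIP from uninduced cells or from the empty vector line was not analysed here. Peak lists hold no check of the cell type or of the level of the tagged protein, and they do not give the depth of the libraries. In the paper's supplement, the ETO2-GLIS2 library at 48 h has the fewest reads of the 4 ChIP libraries. The mapping rates there are lower for ETO2-GLIS2 than for AML1-ETO at both times. Depth thus limits each comparison of counts, widths and cover between the proteins. The lists held 70833 peaks for AML1-ETO at 12 h, 105769 at 48 h, 28325 for ETO2-GLIS2 at 12 h and 30096 at 48 h. Peaks were therefore ranked within their own list by −log10 q, with 1 as the strongest, and ranks are also given as a percentage of the list. Intervals on shares are exact 95% binomial (Clopper-Pearson) intervals and cover counting error only. Neighboring HOX genes share peaks, so they are not independent.

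HOX genes encode homeodomain transcription factors that give cells their position along the body axis. In each cluster the genes stand in the order in which they are used from head to tail, and members with the same number in different clusters are related copies. In blood, HOX genes, the HOXA genes above all, are active in stem and progenitor cells and are switched off as cells mature, and HOXA9 and HOXA10 are well known for high expression in several kinds of acute leukemia. Trithorax proteins such as KMT2A (MLL) keep the clusters active, and Polycomb proteins keep them silent. U937 cells carry a PICALM-MLLT10 fusion, which belongs to a class of leukemia with high HOXA expression.

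To show the DNA at the center of the strongest binding, the 200 bp around the best-ranked summit at 48 h are printed for both proteins in HOXA and HOXC and for AML1-ETO in HOXD. All are on the plus strand of GRCh37, the assembly behind hg19, and none lies in an annotated UTR. Capitals mark matches, on either strand, to the Runt motif (TGTGGT or TGCGGT), a GLIS core (TGGGGGG) or an E-box (CAGCTG).
AML1-ETO, HOXA, chr7:27213413-27213612, in an exon of HOXA10: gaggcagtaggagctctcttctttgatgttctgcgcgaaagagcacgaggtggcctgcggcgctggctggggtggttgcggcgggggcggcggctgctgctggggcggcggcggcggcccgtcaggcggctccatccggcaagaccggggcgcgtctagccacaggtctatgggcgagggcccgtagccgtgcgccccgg
ETO2-GLIS2, HOXA, chr7:27196401-27196600, 207 bp from a HOXA7 start site: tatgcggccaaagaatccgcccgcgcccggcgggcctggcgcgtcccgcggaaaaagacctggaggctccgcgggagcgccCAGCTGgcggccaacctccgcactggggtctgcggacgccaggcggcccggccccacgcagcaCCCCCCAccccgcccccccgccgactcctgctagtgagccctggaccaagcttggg
AML1-ETO, HOXC, chr12:54377326-54377525, in HOXC-AS3: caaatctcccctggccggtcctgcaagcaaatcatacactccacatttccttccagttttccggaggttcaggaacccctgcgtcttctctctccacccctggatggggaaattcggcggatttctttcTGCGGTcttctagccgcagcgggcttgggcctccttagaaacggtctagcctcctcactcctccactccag
ETO2-GLIS2, HOXC, chr12:54411769-54411968, in HOXC4 and HOXC6: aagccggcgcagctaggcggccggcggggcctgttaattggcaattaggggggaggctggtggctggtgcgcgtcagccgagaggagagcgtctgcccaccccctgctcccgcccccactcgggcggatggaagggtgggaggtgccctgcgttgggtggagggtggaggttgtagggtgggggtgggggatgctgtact
AML1-ETO, HOXD, chr2:176961689-176961888, between HOXD13 and HOXD12: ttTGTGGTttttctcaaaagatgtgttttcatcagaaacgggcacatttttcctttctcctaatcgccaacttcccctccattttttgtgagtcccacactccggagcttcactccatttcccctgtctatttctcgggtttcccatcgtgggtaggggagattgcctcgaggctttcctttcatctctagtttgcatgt
The window of AML1-ETO in HOXA, its strongest site in the 4 clusters, held no match to any of the 8 motifs searched and was 73% GC. The window of ETO2-GLIS2 in HOXA was 75.5% GC and held an E-box and a GLIS core.

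With peaks of any rank counted, the share of HOX genes with a peak lay near that of all protein-coding genes, and the 4 clusters differed widely. AML1-ETO had a peak at 23 of the 38 HOX genes at 12 h (60.5%, interval 43.4 to 76) and at 25 at 48 h (65.8%, 48.6 to 80.4). The share of all protein-coding genes was 69.7% and 74.4%, within both intervals. ETO2-GLIS2 had a peak at 18 at 12 h (47.4%, 31 to 64.2) and at 19 at 48 h (50%, 33.4 to 66.6), beside 57.1% and 57.9% of all protein-coding genes, again within the intervals. In HOXA, AML1-ETO had a peak at 10 of the 10 members at both times and ETO2-GLIS2 at 10 at 12 h and 9 at 48 h. In HOXB, AML1-ETO had a peak at 0 of 10 members at 12 h and at 2 at 48 h, and ETO2-GLIS2 at 1 at each time. HOXC stood nearer to HOXA, with 8 of 9 members for AML1-ETO at both times and 5 and 7 for ETO2-GLIS2. HOXD stood between, with 5 of 9 for AML1-ETO and 2 of 9 for ETO2-GLIS2 at each time. With only the strongest 10% of peaks of each list, AML1-ETO had a peak at 9 HOX genes at 12 h (23.7%, interval 11.4 to 40.2; all genes 27.3%) and at 8 at 48 h (21.1%, 9.55 to 37.3; all genes 40.9%). At 48 h HOXA3, HOXA6, HOXA7 and HOXA11 also lay at least in part under a peak of the strongest 10%, but its single summit was over 5 kb away and they are not in the count of 8. For ETO2-GLIS2 the same count was 0 at 12 h (0%, up to 9.25%; all genes 12%) and 3 at 48 h (7.89%, 1.66 to 21.4; all genes 13.6%). With these strongest peaks, the share of all genes lay above the interval for AML1-ETO at 48 h and for ETO2-GLIS2 at 12 h. It lay within the interval in the other lists. The AML1-ETO value at 48 h depends on the summit rule, which leaves out HOXA3, HOXA6, HOXA7 and HOXA11. No share of all genes by overlap with the strongest 10% was computed, so this value is not read as a lack of strong AML1-ETO peaks at HOX genes.

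**Figure D1:**
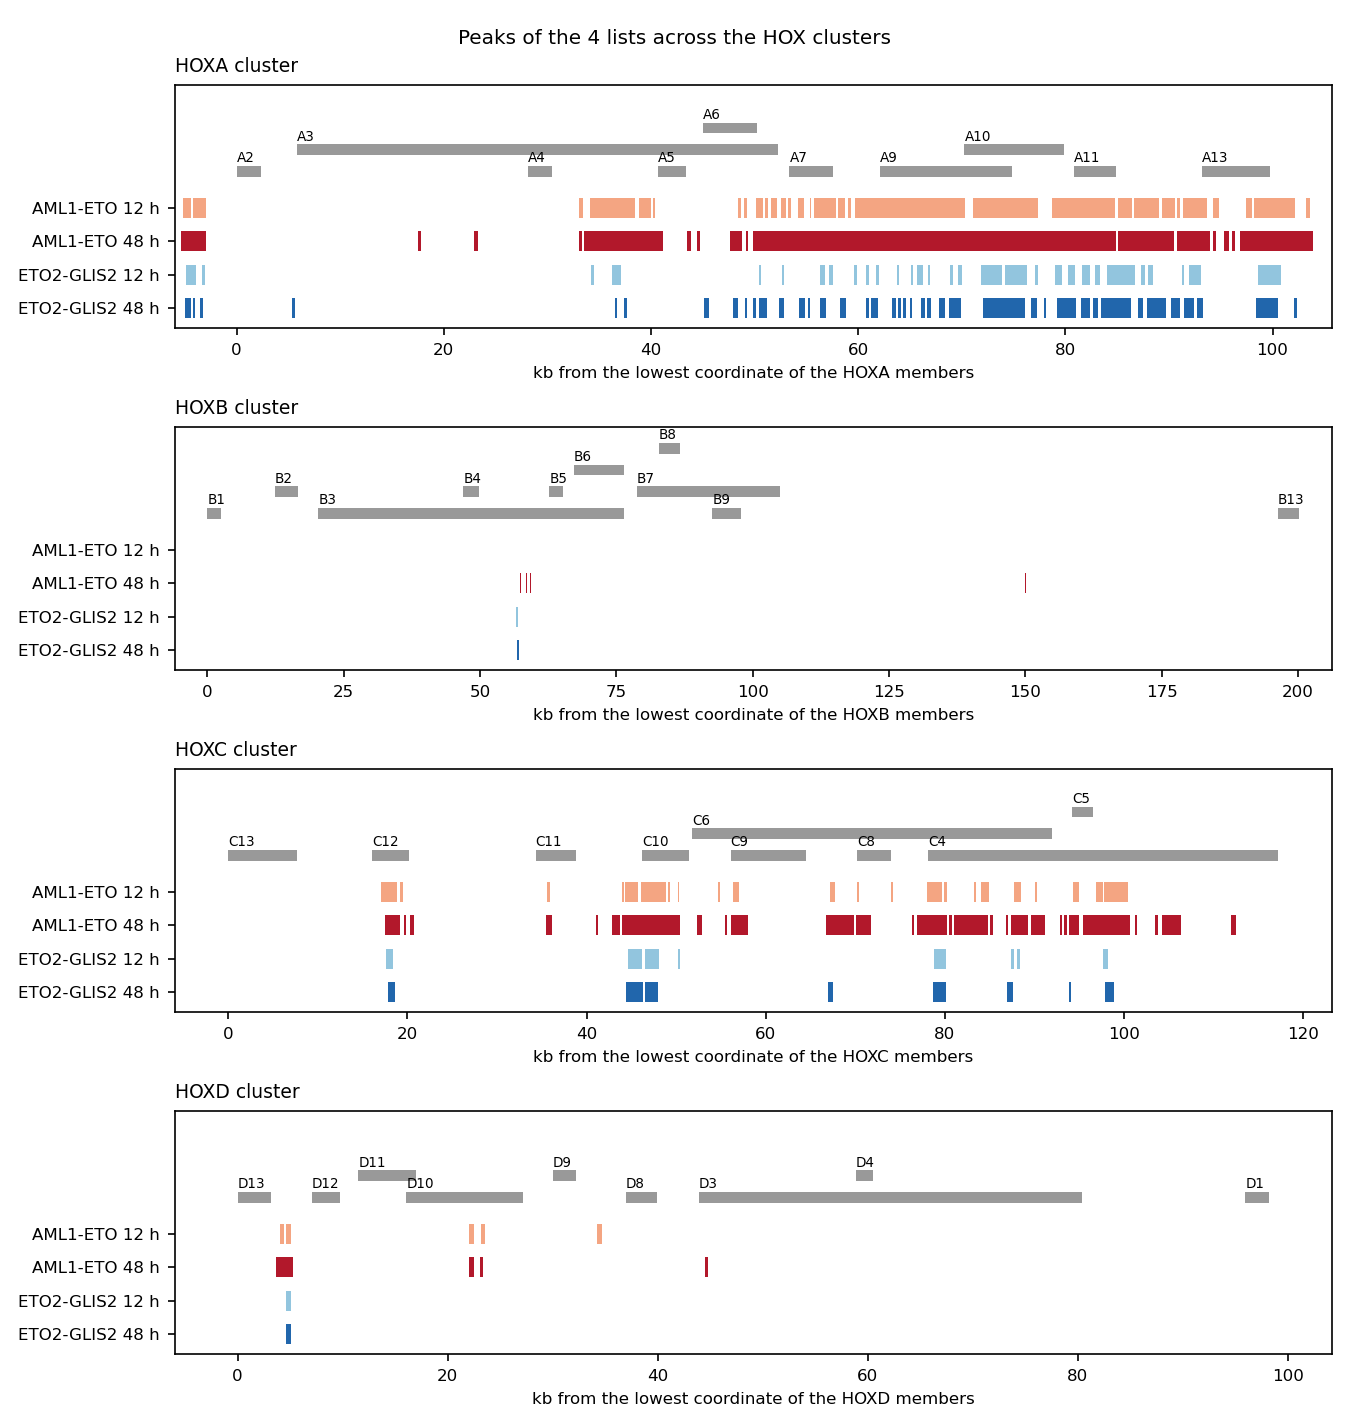
Peaks of the 4 lists (colored bars, 1 row for each list) along each HOX cluster, in kb from the lowest coordinate of its members, with the genes as grey boxes. Peaks fill most of the HOXA7 to HOXA13 end of HOXA, stand apart in HOXC, and are few in HOXB and HOXD.

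The share of bases under a peak separated the clusters more sharply than the count of genes. AML1-ETO peaks covered 46.3% of HOXA at 12 h and 58.5% at 48 h, against 1.78% and 3.36% of the genome. ETO2-GLIS2 peaks covered 18.4% and 27.3% of HOXA, against 0.603% and 0.703% of the genome. HOXC followed, with 14.6% and 34.2% under AML1-ETO and 5.84% and 7.05% under ETO2-GLIS2. In HOXD, AML1-ETO covered 2.05% and 2.62%, while ETO2-GLIS2 covered 0.494% and 0.455%, near or below the genome. HOXB was below the genome in every list, with 0% and 0.485% under AML1-ETO, then 0.208% and 0.162% under ETO2-GLIS2. By these values the order was HOXA, HOXC, HOXD, HOXB in each list. For ETO2-GLIS2 at 48 h the place of HOXD rests on 1 weak peak of rank 20794, since with a −log10 q of at least 5 its cover was 0% and that of HOXB still 0.162%. Base composition differed less between the clusters, with a GC content of 49.3% in HOXB to 52.6% in HOXC and 24.1 CpG per kb in HOXB, 29.1 in HOXC, 33.9 in HOXD and 36.8 in HOXA. Its part in the differences was not tested.

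**Figure D2:**
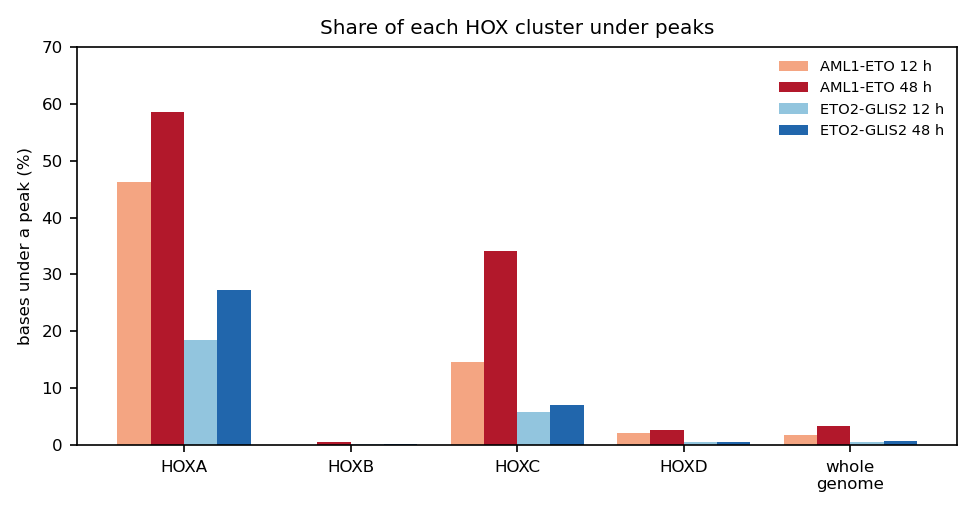
Share of bases under a peak (%) in each HOX cluster and in the whole genome, with 1 bar for each list and no error bars because there was 1 library for each condition. HOXA reaches 58.5% under AML1-ETO at 48 h, and HOXB stays below 0.5% in all 4 lists.

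Within HOXA the peaks gathered at the HOXA7 to HOXA13 end, a division chosen after the values had been seen. This end holds the genes of leukemic interest, HOXA9 and HOXA10, and HOXA13, which acts in limb and hindgut. Over its 46.4 kb, AML1-ETO covered 80.9% at 12 h and 95% at 48 h, and ETO2-GLIS2 36.1% and 51.2%. Over the 53.4 kb from HOXA2 to HOXA6 the same shares were 16.2%, 26.8%, 2.95% and 6.54%. At 48 h a single AML1-ETO peak of 35043 bp, chr7:27189787-27224829, held all of HOXA7, HOXA9 and HOXA10 and touched HOXA3, HOXA6 and HOXA11. It was the third widest of the 105769 peaks (width rank 3) and ranked 415 by −log10 q (0.392% of the list), with a fold enrichment over background of 56.6 and a −log10 q of 366. Under the same stretch AML1-ETO at 12 h had 13 peaks that covered 83.4% of it, of which the widest was 10639 bp (width rank 27). ETO2-GLIS2 had 21 peaks there at 12 h, covering 34.3%, and 24 at 48 h, covering 50%, with median widths of 378 and 522.5 bp. The median of the 13 AML1-ETO peaks at 12 h was 590 bp, and the widest ETO2-GLIS2 peaks were 2737 bp at 12 h and 4027 bp at 48 h.

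**Figure D3:**
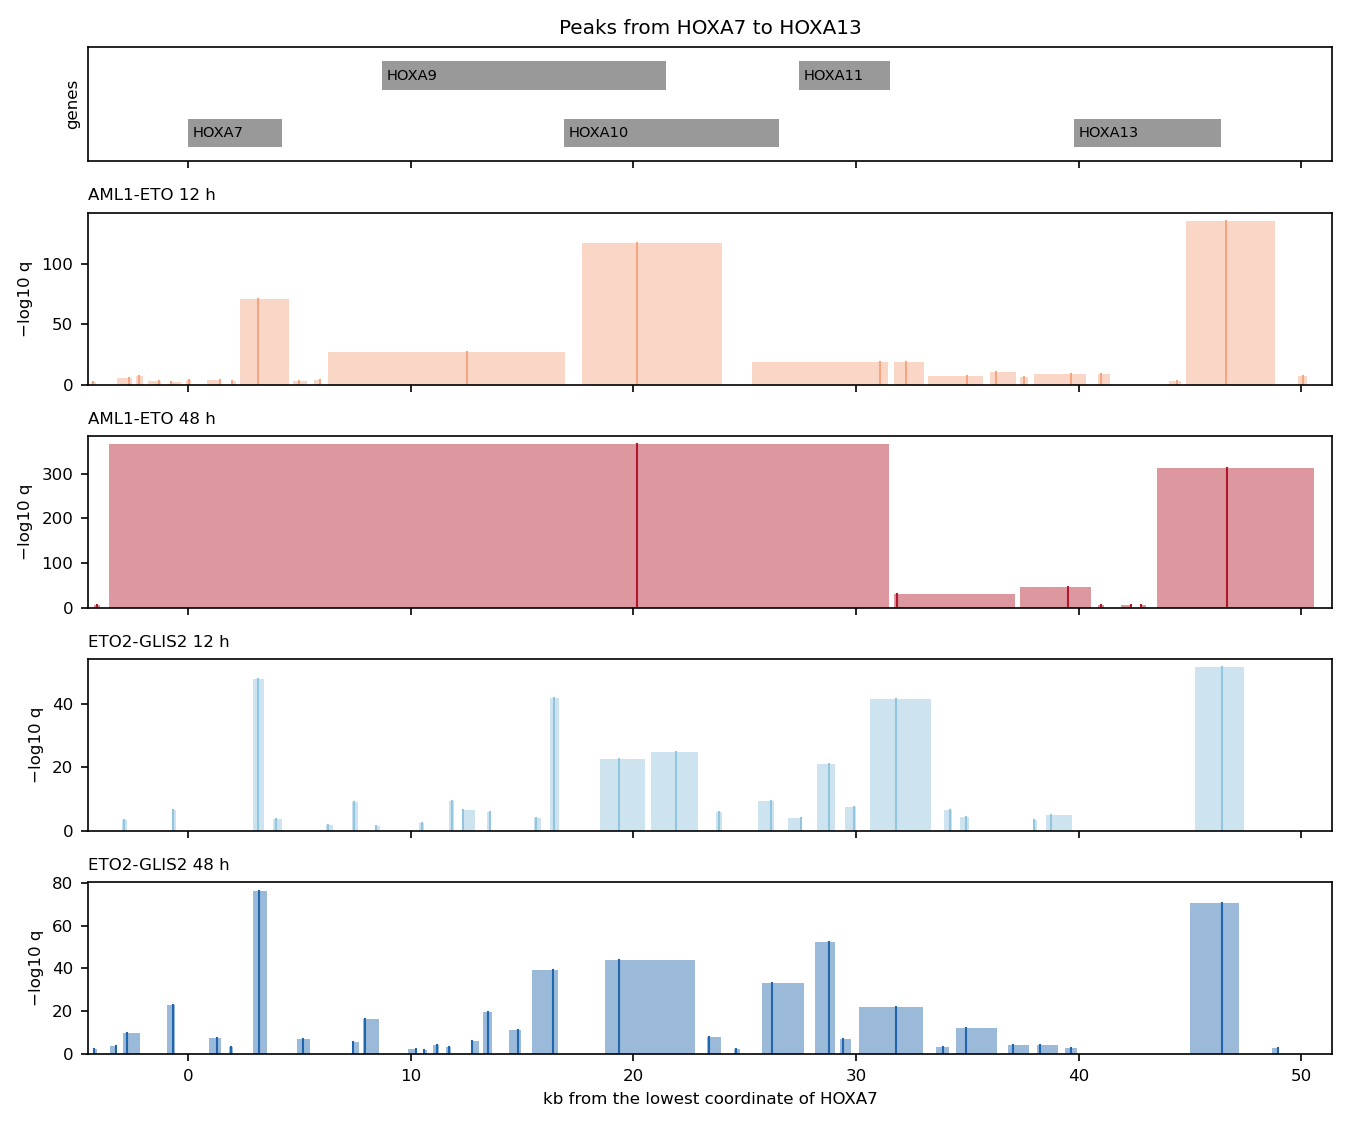
Peaks from HOXA7 to HOXA13, in kb from the lowest coordinate of HOXA7, with the genes above and 1 panel for each list. Each box spans a peak with its −log10 q as height, each line marks its summit, and the vertical scales differ between panels. The 35043 bp AML1-ETO peak at 48 h stands over many separate ETO2-GLIS2 peaks.

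HOXA9 and HOXA10 share this site, since their annotated extents overlap. The AML1-ETO summit was at the same base, chr7:27213513, at both times, 426 bp from a HOXA10 start site. It ranked 1709 at 12 h (2.41%, fold 17.2) and 415 at 48 h. ETO2-GLIS2 had its summits elsewhere in both genes. At 12 h its best peak for both genes was chr7:27209590-27210008, 329 bp from a HOXA9 start site, with rank 4159 (14.7%, fold 15.6). At 48 h the best for HOXA9 was chr7:27212053-27216079, 122 bp from a HOXA10 start site, with rank 3801 (12.6%, fold 14.5). For HOXA10 it was chr7:27221474-27222365 in an exon of HOXA11, with rank 3321 (11%, fold 20.1). AML1-ETO covered 94.1% of HOXA9 at 12 h and 100% at 48 h, and ETO2-GLIS2 36.6% and 49.2%. For HOXA10 the same shares were 78.5%, 100%, 53.2% and 58.5%. Both genes lay under the strongest AML1-ETO peak of the clusters, while the ETO2-GLIS2 peaks there stood outside the strongest 10% of their lists.

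HOXA13 had a strong peak in all 4 lists, at the shared start of HOXA13 and HOTTIP, a noncoding RNA that works with KMT2A complexes to keep the HOXA9 to HOXA13 genes active. For AML1-ETO the peak ranked 1377 at 12 h (1.94%, fold 33.4) and 642 at 48 h (0.607%, fold 55). For ETO2-GLIS2 it ranked 3504 at 12 h (12.4%, fold 18) and 2494 at 48 h (8.29%, fold 24.3). All 4 summits lay just outside the cluster as defined here, so the counts of cluster peaks leave this site out. Among the sites assigned to HOX genes, it was the only one where both proteins had a summit of the strongest 10% at 48 h.

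The best ETO2-GLIS2 peak within the clusters at 48 h was at the start of HOXA7, and HOXA3 was assigned the same peak because it lies within 5 kb of it. This peak, chr7:27196239-27196874, was 636 bp wide and ranked 2338 (7.77%, fold 23.5), and at 12 h the site ranked 3741 (13.2%, fold 15.9). AML1-ETO had a peak at the same place at 12 h with rank 3624 (5.12%, fold 20.7), and the summits of both proteins at 12 h were 9 bp apart. At 48 h the site was inside the 35043 bp peak, which has its single summit near HOXA10. The best AML1-ETO summit assigned to HOXA7 at 48 h then ranked 24011 (22.7%), although 100% of the gene was covered. For genes under a very wide peak, the rank by summit thus gives a lower place than the cover does. The other HOXA members, HOXA2, HOXA4, HOXA5, HOXA6 and HOXA11, had best ranks of 4.95% to 67.8% of the list where they had a peak. HOXA2 had its best peak in each list beyond its 3′ side at the start of HOTAIRM1, a noncoding RNA of myeloid cells, and no peak touched HOXA2 itself. HOXA4 was the 1 member of HOXA without a peak in a list, ETO2-GLIS2 at 48 h.

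**Figure D4:**
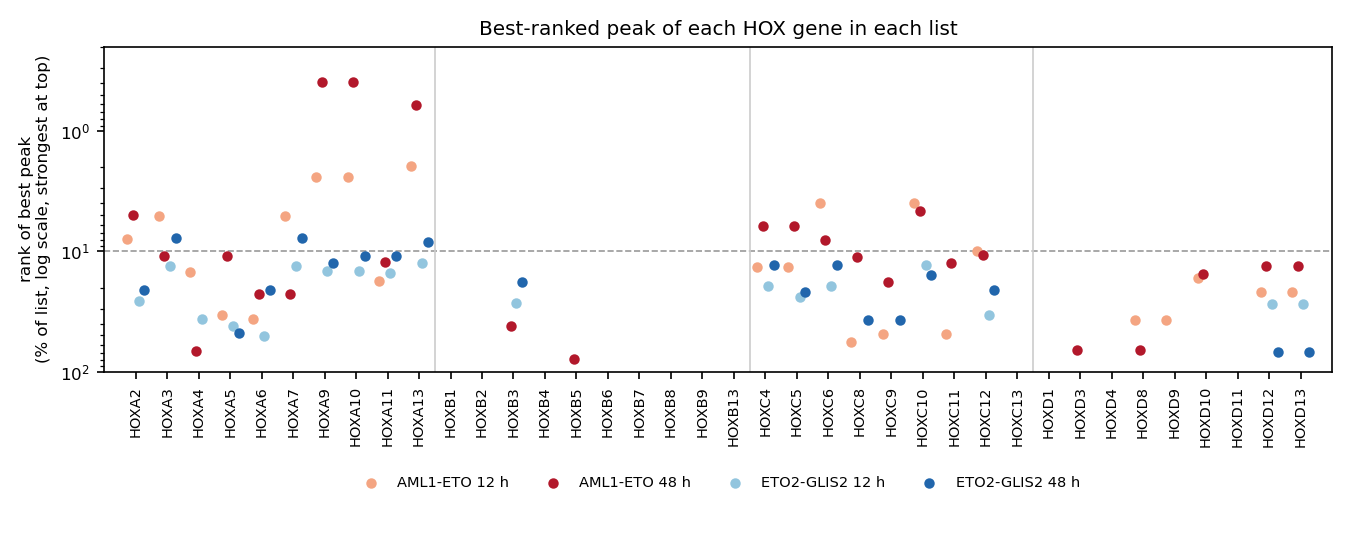
Rank of the best peak of each HOX gene as a percentage of its list (log scale, strongest at the top), with 1 point for each list and no point where a gene had no peak. The dashed line marks the strongest 10%. HOXA9, HOXA10 and HOXA13 reach 0.392% to 0.607% in AML1-ETO at 48 h, and most HOXB genes have no point.

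In HOXC the best ranks at 48 h were at HOXC10 and across HOXC4, HOXC5 and HOXC6. HOXC10, a gene of the lower trunk and hindlimb, had a peak in all 4 lists. The AML1-ETO peak at 48 h, chr12:54376595-54383064, was 6470 bp wide and ranked 4866 (4.6%, fold 23.1), with its summit in the antisense RNA HOXC-AS3. At 12 h the best AML1-ETO peak of HOXC10 ranked 2789 (3.94%, fold 24), at a HOXC10 start site. ETO2-GLIS2 ranked 3656 at 12 h (12.9%, fold 17.3) and 4752 at 48 h (15.8%, fold 15.1). AML1-ETO covered 58.8% and 80.8% of HOXC10, and ETO2-GLIS2 34.3% and 28.4%.

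HOXC4 and HOXC5 shared their best AML1-ETO peak, chr12:54428058-54433218 at 48 h, with rank 6470 (6.12%, fold 19.1). At 12 h their best AML1-ETO peak ranked 9534 (13.5%, fold 10.9). HOXC4 and HOXC6, whose extents overlap, shared the best ETO2-GLIS2 peak of HOXC at 48 h, chr12:54411283-54412760, with rank 3913 (13%, fold 14.7), after rank 5495 (19.4%, fold 11.4) at 12 h. AML1-ETO at 48 h had a peak at that place with rank 8477 (8.01%, fold 15.6), and the summits of both proteins were 4 bp apart. Another pair of summits at 48 h, in the HOXC6 intron near HOXC8, was 3 bp apart, with ranks of 19195 for AML1-ETO and 11154 for ETO2-GLIS2. From HOXC4 to HOXC9 (65.8 kb, chosen after the values had been seen) the AML1-ETO cover was 15.2% at 12 h and 45% at 48 h, whereas from HOXC10 to HOXC13 it was 13.8% and 20.5%. The ETO2-GLIS2 cover of these stretches was 4.01% and 6.25%, and 8.18% and 8.08%.

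HOXC11 had peaks of AML1-ETO only, at both times. Its best summit lay at the start of HOTAIR, a noncoding RNA read from the opposite strand between HOXC11 and HOXC12 that is known for silencing HOXD, and ranked 34326 at 12 h (48.5%, fold 4.25) and 13322 at 48 h (12.6%, fold 10.3). HOXC8 and HOXC9 had AML1-ETO peaks at both times and an ETO2-GLIS2 peak at 48 h with rank 11154 (37.1%, fold 6.9). HOXC12 had a peak in all 4 lists, with best ranks of 9.92% to 33.7%. HOXC13, which acts in hair and nails, had none.

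HOXB was nearly empty. HOXB1, HOXB2, HOXB4, HOXB6, HOXB7, HOXB8, HOXB9 and HOXB13 had no peak in any list. HOXB3, which like HOXB4 is expressed in blood stem cells, held the 1 ETO2-GLIS2 site of the cluster. This peak ranked 7609 at 12 h (26.9%, fold 9.16) and 5447 at 48 h (18.1%, fold 13.4). No AML1-ETO peak overlapped it. Its summits lay in an intron, 2838 bp at 12 h and 2823 bp at 48 h from the nearest HOXB3 start site. The annotated extent of HOXB3 is 56043 bp long and also holds HOXB4 and HOXB5, so the site need not be particular to HOXB3. The best AML1-ETO peak of HOXB3 at 48 h was weak, with rank 44473 (42%, fold 4.01), and at 12 h HOXB3 had none. HOXB5 was called in AML1-ETO at 48 h only, by a peak within 5 kb with rank 83671 (79.1%, fold 3.01). The best-ranked AML1-ETO peak of HOXB lay in an intron of LINC02086, in the long stretch before HOXB13, with rank 29128 (27.5%), and belonged to no member.

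In HOXD the site between HOXD13 and HOXD12, genes of limb and digits, had a peak in all 4 lists. AML1-ETO ranked 15300 at 12 h (21.6%, fold 6.76) and 13955 at 48 h (13.2%, fold 8.25), where the peak was 1571 bp wide. ETO2-GLIS2 ranked 7814 at 12 h (27.6%, fold 8.07) and 20794 at 48 h (69.1%, fold 3.5). Within their lists, the AML1-ETO peak stood higher at 48 h than at 12 h, and the ETO2-GLIS2 peak lower. HOXD10 had AML1-ETO peaks only, in an intron, with rank 11842 at 12 h (16.7%, fold 7.89) and 16328 at 48 h (15.4%, fold 7.14). The other HOXD members called for AML1-ETO had weaker peaks. HOXD8 and HOXD9 shared a peak of rank 26389 at 12 h (37.3%, fold 4.77), and HOXD3 and HOXD8 shared another of rank 70149 at 48 h (66.3%, fold 2.82). HOXD1, HOXD4 and HOXD11 had no peak in any list.

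Across the 4 lists, 16 of the 38 HOX genes had a peak in every list (42.1%, all protein-coding genes 50%), of which 9 were in HOXA, 5 in HOXC and 2 in HOXD. A further 12 had none in any list (31.6%, all genes 22.4%), of which 8 were in HOXB. HOXB5, HOXC11, HOXD3, HOXD8, HOXD9 and HOXD10 were called in AML1-ETO lists only, which is 15.8% of members beside 13.8% of all genes. No HOX gene was called in ETO2-GLIS2 lists only, beside 1.21% of all genes. At 48 h alone, 6 HOX genes had a peak of AML1-ETO and none of ETO2-GLIS2 (15.8%, all genes 17.2%), and 0 the reverse (all genes 0.803%). The HOX genes thus stood near the background in which protein called them, with AML1-ETO lists over 2 times as long at each time point.

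Calls of HOX genes at 12 and 48 h were set side by side. AML1-ETO kept 22, gained HOXB3, HOXB5 and HOXD3 and lost HOXD9, all by peaks outside the strongest 30% of a list. ETO2-GLIS2 kept 17, gained HOXC8 and HOXC9 by 1 shared peak and lost HOXA4. Of all protein-coding genes, AML1-ETO gained 6.66% and lost 2%, and ETO2-GLIS2 gained 6.68% and lost 5.8%. Of the AML1-ETO cluster peaks at 12 h, 49 of 53 overlapped a peak at 48 h (92.5%, 81.8 to 97.9; all peaks 73.9%). In the other direction it was 23 of 50 (46%, 31.8 to 60.7; all peaks 36.8%). For ETO2-GLIS2, 31 of 37 peaks at 12 h overlapped one at 48 h (83.8%, 68 to 93.8; all peaks 60.6%), and 29 of 45 at 48 h overlapped one at 12 h (64.4%, 48.8 to 78.1; all peaks 54.6%). With peaks within 1 kb joined, the shares from 12 to 48 h were 17 of 20 for AML1-ETO (85%) and 18 of 20 for ETO2-GLIS2 (90%). Peaks that lie under 1 wide peak are not independent, so the intervals are too narrow for these overlaps. The number of AML1-ETO peaks in HOXA fell from 26 to 14 while its cover rose from 46.3% to 58.5%, as peaks that were separate at 12 h lay under 1 peak at 48 h.

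To see whether both proteins used the same places, their cluster peaks were overlapped at each time point. At 48 h, AML1-ETO peaks overlapped 42 of the 45 peaks of ETO2-GLIS2 (93.3%, 81.7 to 98.6; all peaks 83.4%), and at 12 h it was 36 of 37 (97.3%, 85.8 to 99.9; all peaks 74.5%). In reverse, 15 of 50 AML1-ETO peaks at 48 h (30%, 17.9 to 44.6; all peaks 17.8%) and 19 of 53 at 12 h (35.8%, 23.1 to 50.2; all peaks 26.2%) overlapped an ETO2-GLIS2 peak. The same limit holds for these shares, as AML1-ETO covered 46.3% of HOXA at 12 h and 58.5% at 48 h. By bases, 94.6% of what ETO2-GLIS2 covered in the clusters at 48 h was under AML1-ETO, and 33.6% the other way. The summits were then compared. For ETO2-GLIS2 peaks at 48 h that overlapped an AML1-ETO peak, the median distance to the nearest AML1-ETO summit was 2704 bp. That summit could belong to any AML1-ETO peak, not only to the one overlapped. The 35043 bp peak, which has 1 summit, held 23 of the ETO2-GLIS2 summits, and some of these lay nearer to the summit of another peak. At 12 h the median was 802.5 bp, and counted from the AML1-ETO summits it was 330 bp at 48 h and 225 bp at 12 h. With summits within 200 bp required, the shares fell to 15.6% of ETO2-GLIS2 peaks at 48 h and 24.3% at 12 h. The peaks of all lists together formed 55 regions, of which 8 were in all 4 lists (2 in HOXA, 5 in HOXC and 1 in HOXD), 40 in AML1-ETO lists only and 3 in ETO2-GLIS2 lists only. No share of such regions over the genome was computed, and the AML1-ETO lists were the longer at both times. The counts of regions are therefore not read as a trait of the clusters.

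The cluster peaks of AML1-ETO lay at start sites more often than its other peaks. Of its summits in the clusters, 54.7% at 12 h (40.4 to 68.4) and 48% at 48 h (33.7 to 62.6) were within 1 kb of an annotated start site, beside 28% and 22.8% of all its summits. For ETO2-GLIS2 these shares were 51.4% (34.4 to 68.1) and 55.6% (40 to 70.4), beside 42.7% and 43.7%, within the intervals. HOX clusters are dense in start sites of genes and antisense RNAs, and the part of that density was not tested.

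Motif matches in the 200 bp around the cluster summits were counted beside those of all summits of the same list. The Runt motif, which the AML1 part binds, was at 20.8% of AML1-ETO summits at 12 h (10.8 to 34.1; all 26.7%) and 18% at 48 h (8.58 to 31.4; all 24.9%). ETO2-GLIS2 summits had it at 21.6% at 12 h (9.83 to 38.2; all 23.2%) and 13.3% at 48 h (5.05 to 26.8; all 21.9%). The GLIS core was at 16.2% of ETO2-GLIS2 summits at 12 h (6.19 to 32; all 7.72%) and 11.1% at 48 h (3.71 to 24.1; all 7.89%). AML1-ETO summits in the clusters had the same core at 11.3% at 12 h (4.27 to 23; all 4.23%) and at 14% at 48 h (5.82 to 26.7; all 3.83%), with the lower bounds above all AML1-ETO summits. In 100 bp windows the core was at 5.66% of AML1-ETO summits at 12 h (1.18 to 15.7; all 2.3%), where the interval holds the value of all summits. The windows in the clusters had a higher GC content, at 55.8% against 52% for AML1-ETO at 48 h, and its part was not tested. The sequence TGATTNAT, at which HOX proteins bind with PBX, was found at 0 of the cluster summits in each list, which allows a share of up to 6.72% to 9.49%, and at 1.29% to 1.99% of all summits. The ETS motif (CCGGAAGT) was at 0% to 2.7% of cluster summits, beside 0.579% to 1.38% of all summits. AP-1 (TGACTCA or TGAGTCA) was at 0% to 2.7%, beside 4.54% to 5.8%. C/EBP (TTGCNNAA) was at 2.7% to 6%, beside 8.6% to 10.7%, and the CTCF core (GGNGGCAG) at 3.77% to 11.1%, beside 11.3% to 14.8%. The E-box was at 6% to 21.6%, beside 13.7% to 16.8%. For AP-1, C/EBP and the CTCF core the cluster share in these 200 bp windows was the lower in each list, with the value of all summits inside the interval. For the CTCF core this order depended on the window. In 400 bp windows it was at 24.5% of AML1-ETO cluster summits at 12 h (all 20.2%) and 18% at 48 h (all 20.1%). For ETO2-GLIS2 it was at 29.7% at 12 h (all 24%) and 28.9% at 48 h (all 25%). These are matches of letters and do not show that a factor was bound.

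Among the noncoding RNAs of the clusters, the microRNA miR-196 is a textbook regulator of HOX messages, and its copies lie in 3 clusters. The mature forms of the copies share a seed, here in capitals (RefSeq, GRCh38.p14 table).
miR-196b-5p: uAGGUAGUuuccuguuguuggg
miR-196a-5p: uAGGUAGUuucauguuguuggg
The hairpin of MIR196B, inside the annotated extent of HOXA9, was covered at 100% by AML1-ETO at both times and at 80% and 100% by ETO2-GLIS2. MIR196A1 in HOXB and MIR196A2 in HOXC were covered at 0% in all 4 lists. MIR10B in HOXD and MIR615 in HOXC were also at 0%. Their distances to peaks differed. The nearest AML1-ETO summit at 48 h was 445 bp from MIR196A2, 276 bp from MIR615, 12909 bp from MIR10B and 44817 bp from MIR196A1. For ETO2-GLIS2 at 48 h these distances were 5159, 1084, 52680 and 47045 bp. Of 20 RNAs of the clusters that could be matched, 13 had a peak in AML1-ETO at 12 h, 14 at 48 h, 11 in ETO2-GLIS2 at 12 h and 9 at 48 h. No share over all noncoding genes was computed to set beside these counts. The RNAs lie in or beside HOX genes and can share their peaks, so the counts are not independent of the gene calls.

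Genes that act with or on the HOX genes were counted by the same rule, and the shares of all protein-coding genes given above (69.7% and 74.4% for AML1-ETO, 57.1% and 57.9% for the other protein) are the values to read them against. Of 9 partners, the PBX, MEIS and PKNOX homeodomain proteins that bind DNA beside HOX proteins, AML1-ETO had a peak at 7 at 12 h and 9 at 48 h, and ETO2-GLIS2 at 5 at both. MEIS1, the partner that cooperates with HOXA9 in leukemia, had a peak in all lists, with best ranks of 9.36% and 2.75% in the AML1-ETO lists, then 10.9% and 11.4% in those of ETO2-GLIS2. Of 11 activators of HOX genes, such as KMT2A and DOT1L, 8 and 9 had an AML1-ETO peak and 8 and 7 an ETO2-GLIS2 peak. Of 13 Polycomb genes, such as EZH2 and BMI1, the counts were 12 and 13 for both proteins. Of 12 genes that flank the clusters, 7 and 8 had a peak of AML1-ETO, and 7 and 8 of ETO2-GLIS2. Several of these counts stand near the shares of all genes. EVX1 and EVX2, homeobox genes next to HOXA13 and HOXD13, had none in any list.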

How the data were processed

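Groups were taken from the sample titles, and the 38 members and the gene lists were chosen with earlier results of these data known. As the labels and the methods state, the authors aligned reads to hg19 with Bowtie2 2.2.9, used SAMtools 1.7 and called peaks with MACS2 2.1.1.20160309 for each ChIP library. Settings are not given in the sources used here. The deposited lists give each peak's summit, its fold enrichment (a linear ratio), its p-value and q-value as −log10, and a score derived from the −log10 q, all made by the authors' peak caller. The smallest −log10 q was 1.3. Values of −log10 q grow with depth, so peaks were ranked within a list, and fold is given beside the rank. Some alternatives set the same minimum of −log10 q for all lists, and depth limits a comparison of those counts between lists.

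Peaks were assigned, on chromosomes 1 to 22, X and Y, with GENCODE release 44 lifted to GRCh37, and sequence was read from GRCh37 with pysam 0.24.0. Peaks overlapped if they shared at least 1 bp. Intervals came from scipy 1.17.1. Gene calls and overlaps were tested on simulated data and against bedtools 2.31.1, with 0 differences. Genes with values were the 3 best-ranked members of each cluster at 48 h for each protein, HOXA9 and HOXA10, members with no peak and members called for 1 protein. The alternatives were minima of −log10 q, equal list lengths, joined peaks, other gene windows, stricter overlaps and other motif windows. The HOXD window of ETO2-GLIS2, with a weak peak, was not printed, and the HOXB windows are not reported here.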

Additional observations from a re-analysis of the deposited data

How the results depend on the processing

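Of 136 alternatives for the main results, 96 kept the value within 1.5 times, or within its counting interval for shares, and 40 moved it. With summits within 1 kb of a start site, the genes with a peak numbered 14 and 12 in AML1-ETO (12 and 48 h) and 8 and 10 in ETO2-GLIS2. With summits inside the gene they were 15 for AML1-ETO at 48 h and 10 and 11 for ETO2-GLIS2. Cluster peaks with −log10 q of at least 5 numbered 27 and 28 for AML1-ETO and 27 for ETO2-GLIS2 at 48 h. At 10 or more they were 15, 17, 15 and 18, in the order AML1-ETO at 12 and 48 h and ETO2-GLIS2 at 12 and 48 h. With the 28325 strongest peaks of each list AML1-ETO had 24 and 18 and ETO2-GLIS2 37 and 42, so that the order of the proteins turned, and with peaks within 1 kb joined the counts were 20, 22, 20 and 20. The cover of the clusters by ETO2-GLIS2 at 12 h was 3.34% with −log10 q of at least 10. Runt matches were 9.43% for AML1-ETO at 12 h in 100 bp windows and 34% at 48 h in 400 bp windows.

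For overlaps, summits within 200 bp gave 15.6% of ETO2-GLIS2 and 14% of AML1-ETO peaks at 48 h, and 24.3% and 17% at 12 h. Between times, summits gave 34% of AML1-ETO at 12 h, and 56.8% and 46.7% of ETO2-GLIS2 at 12 and 48 h. An overlap of at least 50% of the peak gave 14% and 18.9% of AML1-ETO peaks at 48 and 12 h shared with ETO2-GLIS2, 26% of AML1-ETO at 48 h kept from 12 h, and 37.8% of ETO2-GLIS2. The share of AML1-ETO peaks at 12 h overlapping ETO2-GLIS2 was 55.6% and 80% at −log10 q of at least 5 and 10. With equal list lengths it was 66.7% at both times, as was the share of AML1-ETO peaks at 48 h found at 12 h. AML1-ETO at 12 h kept 100% at 48 h with −log10 q of at least 10. The cover of the 4 clusters as 1 set was 12.7% and 19.8% under AML1-ETO at 12 and 48 h. Under ETO2-GLIS2 it was 5.06% and 7.04%. Ending HOXB at HOXB7, chosen after seeing the data, gave a cover of this set of 15.5% and 24.2% under AML1-ETO. Under ETO2-GLIS2 it then was 6.2% and 8.63%. Of 389 alternatives for single genes and parts, 50 moved. Other orders turned too. With −log10 q of at least 5 or 10, HOXD had 0% cover under ETO2-GLIS2 at 48 h and HOXB 0.162%. AML1-ETO genes with a peak were 16 at 12 h against 15 at 48 h with summits inside the gene, and 14 against 12 at start sites. No paired analysis was possible because each group holds 1 library. List lengths may differ by depth, which the paper reports as unequal between the ChIP libraries, and the cause of each move was not tested.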
